A study of Mus musculus with 30 samples.

Results

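A set of 10 genes that encode hepatic receptors for epidermal growth factor (EGF), hepatocyte growth factor (HGF), fibroblast growth factors (FGF) and insulin, or the proteins directly attached to them, were followed in mouse livers with and without CCAAT/enhancer binding protein α (CEBPA) in hepatocytes. The genes were *Egfr*, *Erbb2* and *Erbb3* (EGF receptor family), *Met* (HGF receptor), *Fgfr1*, *Fgfr4* and *Klb* (FGF receptors and the coreceptor β-Klotho), and *Insr*, *Irs1* and *Irs2* (insulin receptor and its substrates). They were chosen by symbol, and each was found as 1 row among the 55450 genes of the count table. Liver poly(A) RNA was sequenced from 30 male mice in 3 experiments. Every experiment compared 5 *Cebpa* fl/fl mice (Cre-) with 5 mice that lacked hepatocyte CEBPA (Cre+), and each library came from a biological replicate according to its label. In HFCFD2W, *Cebpa* ΔHep mice carried albumin-Cre and received HFCFD, a diet rich in fat, cholesterol and fructose, for 2 weeks. In HFCFD8W+T10D, *Cebpa* ΔHep,ERT2 mice, which carried the tamoxifen-inducible albumin-ERT2-Cre, were on HFCFD for 8 weeks with tamoxifen in the last 10 days. In HFCFD12W+T10W, *Cebpa* ΔHep,ERT2 mice were fed HFCFD for 12 weeks and then for a further 10 weeks with tamoxifen, 22 weeks in all. The *Cebpa* fl/fl controls of both tamoxifen experiments carried the same tamoxifen label as the knockouts, the floxed *Cebpa* alleles and HFCFD were common to all 6 groups, and the ages of the mice were not given in the sources used here. The Cre was driven by the albumin promoter, so that the deletion addressed hepatocytes while whole liver was sequenced, and no chow-fed group was analysed here.

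All 30 libraries held between 7996142 and 10257364 expected counts assigned to genes. *Cebpa*, the targeted gene, was at 149.3 to 193.5 CPM (counts scaled to 1000000 per library) in the *Cebpa* fl/fl mice of HFCFD2W and at 3.431 to 5.677 CPM in *Cebpa* ΔHep mice. It was at 121.3 to 156.1 against 11.11 to 25.09 CPM in HFCFD8W+T10D, and at 82.48 to 135.3 against 18.7 to 23.83 CPM in HFCFD12W+T10W. The hepatocyte label was checked against 9 hepatocyte markers, of which *Alb* was the most abundant in every group, and none was at 0 in any group. Their summed level was 108585 to 138070 CPM in *Cebpa* fl/fl and 112109 to 162259 CPM in knockout livers of HFCFD2W, 111316 to 136137 against 51393 to 106672 CPM in HFCFD8W+T10D, and 95160 to 117469 against 46185 to 55001 CPM in HFCFD12W+T10W. In bulk liver, fewer cells of a type and less RNA per cell cannot be told apart. Here and throughout the text the library sizes behind CPM carry TMM scaling factors computed over all 30 libraries.

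The EGF receptor family, MET and the FGF receptors are transmembrane tyrosine kinases that signal through RAS-ERK and PI3K-AKT. In liver, EGFR and MET are the receptors of the main hepatocyte mitogens and take part in regeneration. ERBB2 has no known ligand of its own and pairs with the other family members, whereas ERBB3 binds neuregulins and signals to PI3K although its kinase is weak. β-Klotho with FGFR4 receives the intestinal FGF15 that restrains bile acid synthesis, and β-Klotho with FGFR1 receives FGF21. The insulin receptor phosphorylates IRS1 and IRS2, which carry the signal to PI3K and AKT. AKT in turn keeps the FOXO transcription factors out of the nucleus, and FOXO raises *Irs2* and gluconeogenic genes on fasting.

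The 250 bases before the annotated RefSeq start site of 4 genes are shown. *Egfr* and *Klb* are examples of genes whose genotype effect differed between experiments, as it also did for *Erbb2*, *Met* and *Insr*. *Irs1* and *Irs2*, the paired insulin receptor substrates, held the same motifs. Sequences were taken from RefSeq on GRCm38.p6, where 7 of the 10 genes had an entry, and they are written 5′ to 3′ on the strand of the gene. Capitals mark a match on either strand to TTGCG, the short core of a C/EBP element, to TGTTTTG, a FOXO insulin response element, or to CACGTG, an E-box. The 4 windows lie at chr11:16751953-16752202 (plus strand, *Egfr*), chr5:65348161-65348410 (plus strand, *Klb*), chr1:82291440-82291689 (minus strand, *Irs1*) and chr8:11008930-11009179 (minus strand, *Irs2*). Base positions are counted from the RefSeq starts. The gene coordinates given below carry Ensembl gene identifiers, and their starts differ from these for *Klb*, *Irs1* and *Irs2*. The *Klb* window runs past that gene's start at 65348314, and the *Irs2* window lies upstream of that gene's start at 11008458 with a gap between.
Egfr: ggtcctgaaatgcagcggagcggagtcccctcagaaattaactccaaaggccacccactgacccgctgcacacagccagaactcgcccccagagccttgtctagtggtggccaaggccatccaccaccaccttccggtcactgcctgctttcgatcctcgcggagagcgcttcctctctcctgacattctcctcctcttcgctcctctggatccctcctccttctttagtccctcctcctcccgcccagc
Klb: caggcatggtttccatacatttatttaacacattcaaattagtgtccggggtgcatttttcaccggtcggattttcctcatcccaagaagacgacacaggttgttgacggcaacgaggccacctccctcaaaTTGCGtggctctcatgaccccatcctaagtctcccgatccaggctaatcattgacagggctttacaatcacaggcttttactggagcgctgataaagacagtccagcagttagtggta
Irs1: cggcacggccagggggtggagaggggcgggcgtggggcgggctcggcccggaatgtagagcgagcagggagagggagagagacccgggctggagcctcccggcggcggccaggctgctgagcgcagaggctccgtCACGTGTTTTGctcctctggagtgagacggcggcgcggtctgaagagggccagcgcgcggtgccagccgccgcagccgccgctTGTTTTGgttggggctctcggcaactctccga
Irs2: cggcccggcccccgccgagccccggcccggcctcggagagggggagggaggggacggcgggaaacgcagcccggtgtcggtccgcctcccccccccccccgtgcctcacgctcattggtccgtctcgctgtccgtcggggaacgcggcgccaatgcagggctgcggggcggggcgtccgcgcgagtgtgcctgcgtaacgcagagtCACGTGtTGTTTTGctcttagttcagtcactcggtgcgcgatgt

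In *Irs1*, TGTTTTG began 111 and 32 bases before the start, and CACGTG began at base 115 before the start and overlapped the first TGTTTTG by 2 bases. In *Irs2*, CACGTG began at base 44 and TGTTTTG at base 37. TGTTTTG was in 5.56% and CACGTG in 6.02% of 32817 promoters of the same length. *Klb* held TTGCG at base 118, a match present in 14.5% of promoters, and *Met* held CACGTG at base 126. The longer C/EBP-type motif TTNNGNAA, present in 36.8% of promoters, was found in *Erbb2* (base 210) and *Fgfr4* (base 241) and not in the windows of *Egfr*, *Klb*, *Met*, *Irs1* or *Irs2*. *Erbb3*, *Fgfr1* and *Insr* had no entry.

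To compare levels between the 10 genes, TPM, which is scaled per transcript length, was used. *Egfr* had the highest mean in every group, with 107.4 ± 9.64 TPM (SD, n = 5) in *Cebpa* fl/fl mice of HFCFD2W and 27.67 ± 12.99 TPM (SD, n = 5) in knockout mice of HFCFD12W+T10W. Its TPM range stood clear of the next gene in both groups of HFCFD2W and in the *Cebpa* fl/fl mice of HFCFD8W+T10D, and overlapped that of the next gene in the other 3 groups. *Met*, *Insr* and *Erbb3* followed with group means between 11.59 and 23.41 TPM and ranges that overlapped one another, except those of *Insr* (19.49 to 25.03 TPM) and *Erbb3* (6.82 to 17.63 TPM) in knockouts of HFCFD2W. *Fgfr4* and *Klb* had means between 4.956 and 9.34 TPM, and *Irs2*, *Fgfr1* and *Irs1* between 1.134 and 5.648 TPM. *Erbb2* was lowest in all 6 groups, at a mean of 0.144 TPM in *Cebpa* fl/fl mice of HFCFD2W and 1.08 TPM in knockouts of HFCFD12W+T10W, and overlapped the next gene in that last group alone. The transcript length behind the TPM differed between libraries by 1.96 times for *Egfr*, 2.63 times for *Fgfr1* and 1.8 times for *Erbb2*, so that comparisons between genotypes were made on counts.

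**Figure D1:**
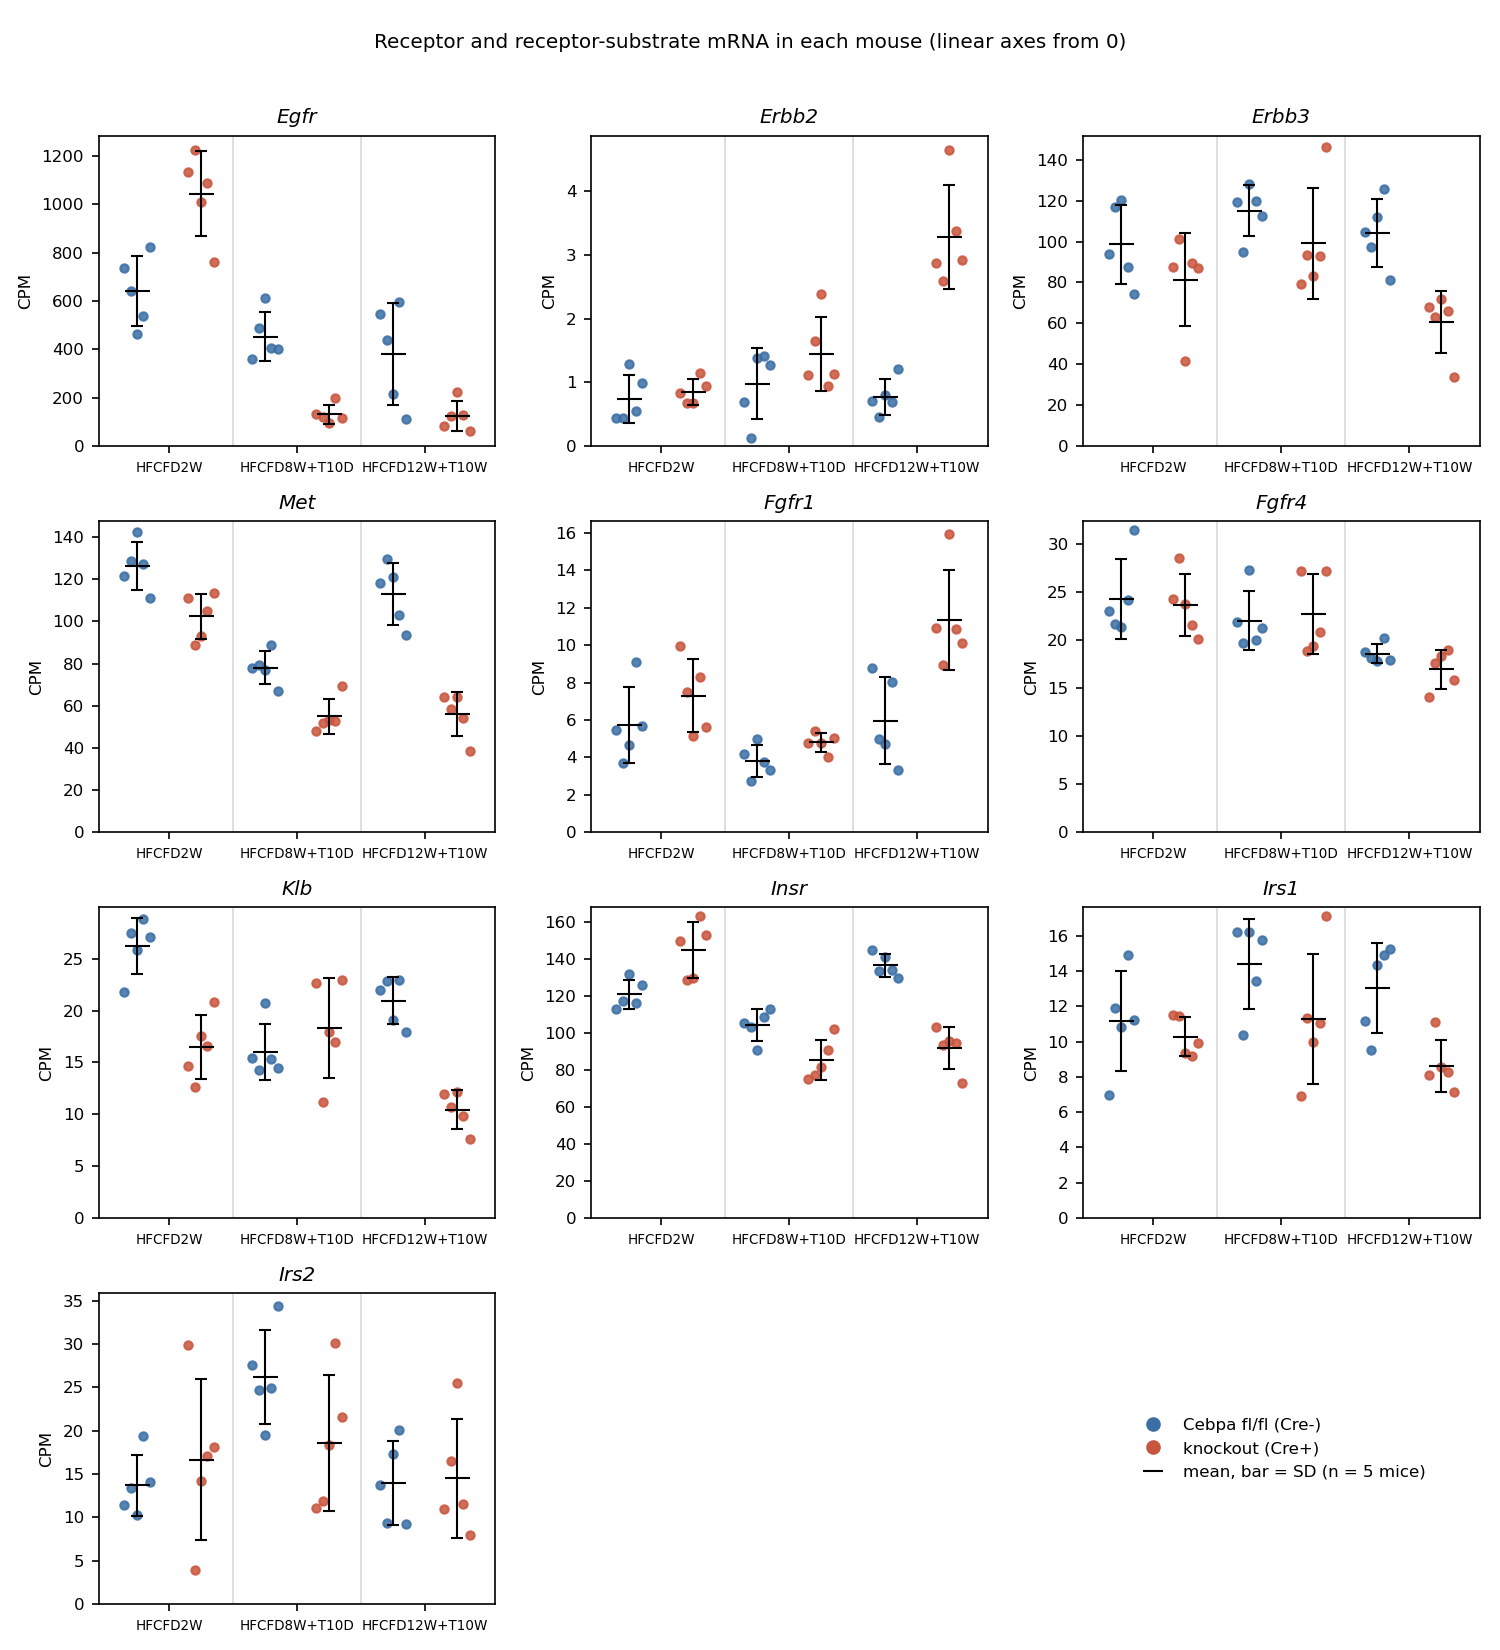
CPM (y axis, linear from 0) of the 10 genes, one panel each, in 30 mice grouped by experiment on the x axis, with Cebpa fl/fl in blue and knockout in red; each point is a mouse and bars are the mean ± SD of 5 mice. Egfr lay higher in knockout livers of HFCFD2W (mean 1043 against 642 CPM) and lower in those of HFCFD8W+T10D (132.8 against 453.5 CPM), and the Erbb2 points of all 5 HFCFD12W+T10W knockouts lay above 2.5 CPM.

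Each knockout group was then compared with the *Cebpa* fl/fl group of its own experiment, which asks how each transcript differs with hepatocyte CEBPA loss there. The 3 experiments are not a time course of the loss, which was constitutive in HFCFD2W and induced by tamoxifen in the others. A gene passed when its edgeR quasi-likelihood p, adjusted by Benjamini-Hochberg over all genes tested in that experiment, was under 0.05, and every adjusted p below is of this kind. In HFCFD2W, 2 of 9 tested genes passed as higher (*Egfr* and *Insr*) and 2 as lower (*Met* and *Klb*), where 8.6% of all 11068 genes tested passed as higher and 8.09% as lower. In HFCFD8W+T10D, none of 10 passed as higher and 2 passed as lower (*Egfr* and *Met*), beside 10.2% and 6.83% of 11992 genes. In either direction 16.7% of genes passed in HFCFD2W and 17.1% in HFCFD8W+T10D. Of the 10, 0 were higher there at an unadjusted edgeR p under 0.05, and 0 by DESeq2 or by limma on TPM. In HFCFD12W+T10W, 2 passed as higher (*Erbb2* and *Fgfr1*) and 6 as lower (*Egfr*, *Erbb3*, *Met*, *Klb*, *Insr* and *Irs1*), beside 27.4% and 23.8% of 12463 genes, so that 51.1% of all genes passed in either direction there. The median log2 fold change of the tested members was -0.03, -0.24 and -0.54 in the 3 experiments, and that of all genes was 0.01 in each. When a fold over 2 was also asked, *Egfr* remained as lower in both tamoxifen experiments (2.01% and 3.47% of all genes), *Erbb2* as higher in HFCFD12W+T10W (14.3%), and 0 members as higher in HFCFD8W+T10D (4.09%) or in either direction in HFCFD2W (1.69% higher and 1.38% lower). On TPM tested with limma, *Met* and *Klb* were the members that passed as lower in HFCFD12W+T10W.

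**Figure D2:**
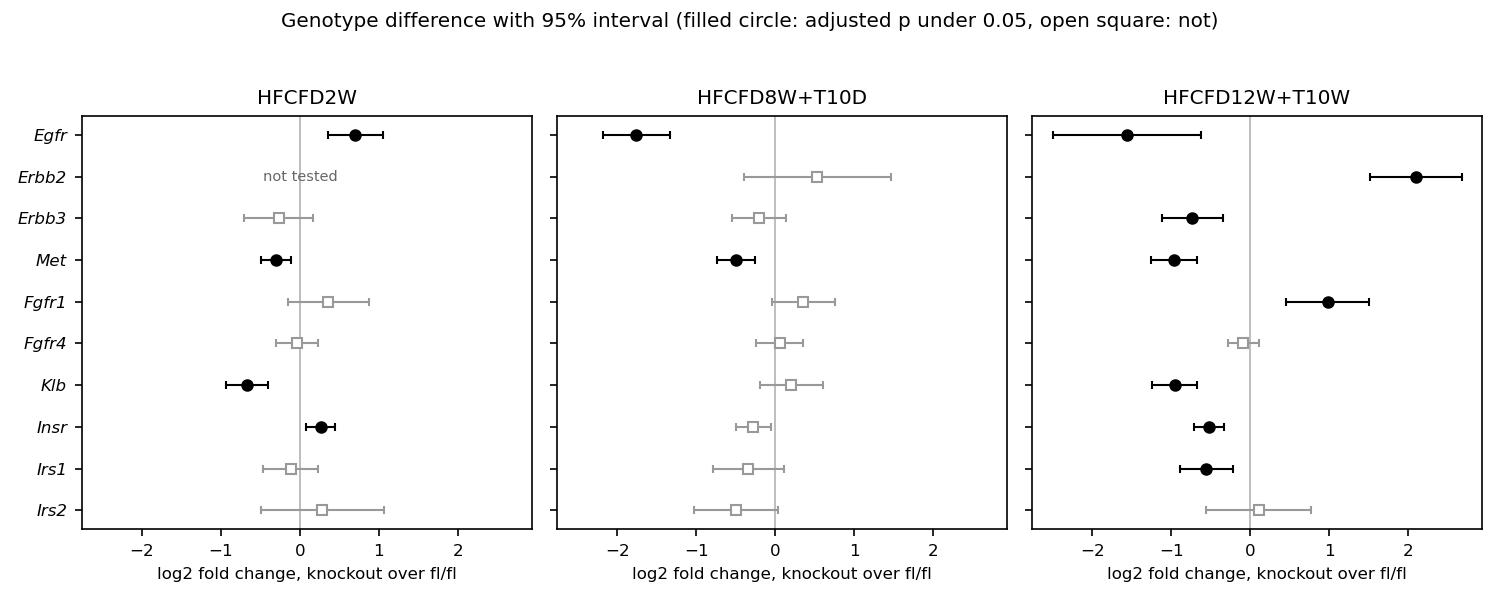
Log2 fold change, knockout over Cebpa fl/fl (x axis), of the 10 genes (y axis) in the 3 experiments with 95% confidence intervals from edgeR; Erbb2 was not tested in HFCFD2W. Egfr sat at 0.70 in HFCFD2W and at -1.76 and -1.57 in the tamoxifen experiments, and Fgfr4 sat near 0 in each.

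*Egfr* (chr11:16752203-16918158, plus strand, GRCm38, protein coding), the receptor of EGF, TGFα and related ligands, was increased in *Cebpa* ΔHep livers after 2 weeks and decreased in *Cebpa* ΔHep,ERT2 livers of both tamoxifen experiments. In HFCFD2W it was at 466, 539.8, 642, 738 and 823 CPM in *Cebpa* fl/fl mice and at 763, 1008, 1089, 1131 and 1226 CPM in knockout mice. Of the 5 knockouts, 4 lay above every control. The log2 fold change was 0.70 (SE 0.16, 95% interval 0.36 to 1.05, edgeR adjusted p = 0.0104), or 1.63-fold. In the joint fit of all libraries, which gave the differences between experiments below, it was also 0.70 but did not pass (edgeR adjusted p = 0.153). The controls of HFCFD8W+T10D were at 359, 404, 405, 488 and 611 CPM and the knockouts at 97.1, 116, 119, 133 and 198 CPM. The genotypes did not overlap, with a log2 fold change of -1.76 (SE 0.197, 95% interval -2.18 to -1.33, edgeR adjusted p = 0.000105), a level 3.38-fold lower. The controls of HFCFD12W+T10W were spread over 113, 215, 438, 548 and 598 CPM and the knockouts over 62.4, 82.7, 126, 130.4 and 223 CPM. Controls 3 and 5 lay within the knockout range, and the log2 fold change was -1.57 (SE 0.433, 95% interval -2.50 to -0.63, edgeR adjusted p = 0.0088). It was -1.03 by limma on TPM and did not pass (limma adjusted p = 0.064). An exact two-sided permutation test over mice gave p = 0.0159, 0.00794 and 0.0556 in the 3 experiments, where 0.00794 is the smallest p that 5 against 5 mice allow.

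The direction of the *Egfr* difference was compared between experiments directly. The genotype effect was lower by 2.47 log2 units in HFCFD8W+T10D than in HFCFD2W (edgeR adjusted p = 0.000613), where 11.2% of 12964 genes had a different effect in either direction, and the log2 difference was -2.31 between HFCFD12W+T10W and HFCFD2W (edgeR adjusted p = 0.000362), where 30.7% did. The Cre driver, tamoxifen, the time on diet and the experiment itself cannot be told apart in these contrasts. The hepatocyte markers moved with *Egfr* in the tamoxifen experiments, whereas their sums overlapped between genotypes in HFCFD2W. Of 9 markers, 1 passed as higher and 2 as lower in HFCFD2W, 5 as lower and 0 as higher in HFCFD8W+T10D, and 6 as lower and 0 as higher in HFCFD12W+T10W (1 was higher by limma on TPM in each of the latter experiments, and 1 in HFCFD8W+T10D at an unadjusted edgeR p under 0.05), and their part in the *Egfr* result was not tested.

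*Erbb2* (chr11:98412470-98437716, plus strand, GRCm38) was at or below 2.38 CPM in every library of 5 groups and was increased in knockout livers of HFCFD12W+T10W. The *Cebpa* fl/fl mice of HFCFD12W+T10W had 0.453, 0.689, 0.713, 0.804 and 1.21 CPM, from 4 to 12 counts, and the knockouts had 2.59, 2.88, 2.91, 3.37 and 4.64 CPM, from 28 to 55 counts. The genotypes did not overlap, and the log2 fold change was 2.09 (SE 0.268, 95% interval 1.51 to 2.67, edgeR adjusted p = 3.71e-05), or 4.27-fold. The controls of HFCFD8W+T10D were at 0.129 to 1.42 CPM and the knockouts at 0.949 to 2.38 CPM, with a log2 fold change of 0.53 (edgeR adjusted p = 0.438). In HFCFD2W, with 3 to 11 counts per library, *Erbb2* was below the count filter and was not tested, at 0.744 ± 0.377 CPM in controls and 0.854 ± 0.200 CPM in knockouts (SD, n = 5). The genotype effect of HFCFD12W+T10W was 1.89 log2 units above that of HFCFD2W (edgeR adjusted p = 0.00967). That difference came from the joint fit, whose filter covered all 6 groups, and its HFCFD2W side rests on 3 to 11 counts per library. Within HFCFD12W+T10W, *Erbb2* met the count filter through the knockout libraries, where it was high.

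Genes that mark cholangiocytes, in which *Erbb2* is also expressed, were higher as well in knockouts of HFCFD12W+T10W. Of the 9 cholangiocyte markers, 8 were tested in HFCFD12W+T10W and all 8 were higher in knockouts, and their summed level was 10.34 to 13.13 CPM in controls and 55.43 to 88.51 CPM in knockouts. In HFCFD8W+T10D, 2 of 5 tested markers were higher, at sums of 13.72 to 20.56 against 22.04 to 27.73 CPM. The markers that passed there were *Epcam* (log2 fold change 2.57) and *Sox9* (1.00). The keratins *Krt19* (-0.51, edgeR adjusted p = 0.416) and *Krt7* (-0.19, edgeR adjusted p = 0.782) had negative values and did not pass. In HFCFD2W 0 of the 2 tested markers passed by edgeR, DESeq2 or limma, also at an unadjusted p under 0.05, at 11.43 to 15.45 against 11.01 to 16.1 CPM. The part of these cells in the *Erbb2* result was not tested.

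*Erbb3* (chr10:128567523-128589652, minus strand, GRCm38), the neuregulin receptor, was decreased in HFCFD12W+T10W. There it was at 81.3, 97.6, 104, 112 and 126 CPM in controls and at 33.9, 63.3, 66.0, 68.1 and 71.8 CPM in knockouts. No knockout reached a control, and the log2 fold change was -0.74 (SE 0.179, edgeR adjusted p = 0.00404), against -0.38 by limma on TPM (limma adjusted p = 0.0728). The ranges overlapped in HFCFD2W (74.5 to 120.1 against 41.9 to 101 CPM) and in HFCFD8W+T10D (94.96 to 128 against 79.4 to 146 CPM). The log2 fold changes were -0.27 (edgeR adjusted p = 0.39) and -0.20 (edgeR adjusted p = 0.427). The knockout at 146 CPM was replicate 5 of HFCFD8W+T10D, which had the highest level of its group for 6 of the 10 genes. Without it 5 genes instead of 2 passed as lower in that experiment, the additional genes being *Erbb3* (log2 fold change -0.40, edgeR adjusted p = 0.0231), *Insr* (-0.36, edgeR adjusted p = 0.0265) and *Irs1* (-0.55, edgeR adjusted p = 0.0466).

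**Figure D3:**
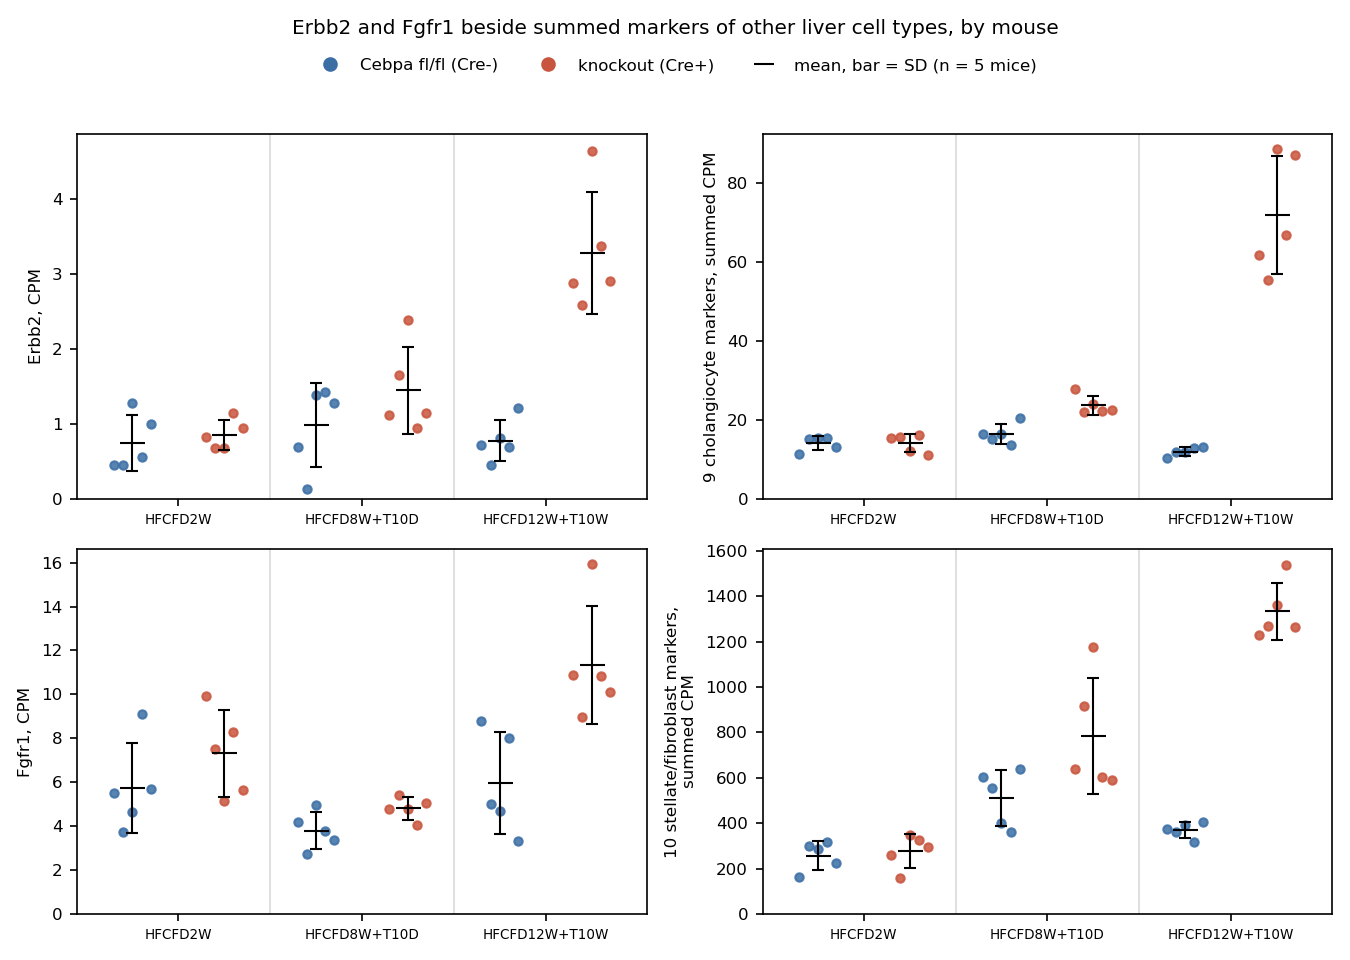
CPM of Erbb2 and Fgfr1 (y axes, linear from 0) in each mouse beside the summed CPM of 9 cholangiocyte and 10 stellate cell and fibroblast markers, by experiment (x axis), with Cebpa fl/fl in blue, knockout in red and bars for mean ± SD of 5 mice. In HFCFD12W+T10W the cholangiocyte sums of the knockouts (55.43 to 88.51 CPM) and the stellate sums (1228 to 1540 CPM) lay above all controls, as did Erbb2 and Fgfr1.

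*Met* (chr6:17463800-17573980, plus strand, GRCm38), the HGF receptor, was decreased in knockout livers of all 3 experiments on counts, and in HFCFD12W+T10W also by limma on TPM. In HFCFD2W it was at 111, 122, 127, 129 and 142 CPM in controls and at 89.0, 93.3, 105, 111 and 113 CPM in knockouts. The ranges overlapped at 111 to 113 CPM, with a log2 fold change of -0.30 (SE 0.088, edgeR adjusted p = 0.0341), and the call was lost in 6 of 10 fits that left out a mouse (control 1, 2, 3 or 4, or knockout 3 or 4, edgeR adjusted p = 0.0546 to 0.0718), in the joint fit (edgeR adjusted p = 0.0869) and by limma on TPM (-0.18, limma adjusted p = 0.424). In HFCFD8W+T10D the controls were at 67.1, 77.2, 78.0, 79.4 and 88.8 CPM and the knockouts at 48.1, 52.0, 52.7, 53.0 and 69.2 CPM, with 4 of 5 knockouts below every control (log2 fold change -0.49, SE 0.111, edgeR adjusted p = 0.0105). By limma on TPM it was -0.39 and did not pass (limma adjusted p = 0.183). The controls of HFCFD12W+T10W were at 93.4, 103, 118, 121 and 129.5 CPM and the knockouts at 38.7, 54.4, 58.3, 64.2 and 64.4 CPM. All knockouts were lower there, by 1.96-fold (log2 fold change -0.97, SE 0.135, edgeR adjusted p = 7.26e-05). The effect in HFCFD12W+T10W was lower by 0.71 log2 units than in HFCFD2W (edgeR adjusted p = 0.00183), a difference that did not pass by limma on TPM (-0.37, limma adjusted p = 0.227). *Met* also differed among the *Cebpa* fl/fl groups, with the level in HFCFD8W+T10D 0.69 log2 units below HFCFD2W (log2 difference -0.69, edgeR adjusted p = 3.05e-05) and that in HFCFD12W+T10W 0.53 above HFCFD8W+T10D (edgeR adjusted p = 0.00321).

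*Fgfr1* (chr8:25513654-25575718, plus strand, GRCm38), an FGF receptor of many stromal cells, was increased in HFCFD12W+T10W. The controls were at 3.33, 4.71, 4.99, 8.04 and 8.79 CPM and the knockouts at 8.96, 10.1, 10.9, 10.9 and 15.96 CPM. The lowest knockout was just above the highest control, and the log2 fold change was 0.98 (SE 0.242, edgeR adjusted p = 0.0045), or 1.97-fold. It was 0.36 in both other experiments, with edgeR adjusted p = 0.331 in HFCFD2W and edgeR adjusted p = 0.21 in HFCFD8W+T10D, and the ranges overlapped. All 10 stellate cell and fibroblast markers were higher in HFCFD12W+T10W, at sums of 315.5 to 404.9 CPM in controls and 1228 to 1540 CPM in knockouts. Of these 10 markers, 2 were higher in HFCFD8W+T10D (360.4 to 640.7 against 591.8 to 1178 CPM) and 0 passed in HFCFD2W by edgeR, DESeq2 or limma, with 1 higher at an unadjusted edgeR p under 0.05 (160.9 to 317.1 against 160.4 to 349.5 CPM). The part of these cells in the *Fgfr1* result was not tested. Of the other cell types, 6 of 9 macrophage markers and 2 of 3 tested lymphocyte markers were higher in HFCFD12W+T10W, where 2 macrophage markers were lower and 1 endothelial marker of 8 was higher and 2 were lower. Macrophage markers were also higher in HFCFD2W (3 of 7) and HFCFD8W+T10D (5 of 9), and 1 of 8 endothelial markers was lower in HFCFD8W+T10D. All marker counts in the text stand beside the percentages of all genes given above for each experiment, in HFCFD12W+T10W 27.4% higher and 23.8% lower. The 2 lower endothelial markers of 8 there are near that share.

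*Fgfr4* (chr13:55152640-55168759, plus strand, GRCm38), the main FGF receptor of hepatocytes, did not pass in any experiment. Its means were 24.33 ± 4.16 and 23.68 ± 3.22 CPM in controls and knockouts of HFCFD2W, 22.04 ± 3.10 and 22.71 ± 4.18 CPM in HFCFD8W+T10D, and 18.58 ± 0.980 and 16.97 ± 2.01 CPM in HFCFD12W+T10W (SD, n = 5 each). The log2 fold changes were -0.03, 0.06 and -0.09, with edgeR adjusted p = 0.882, 0.821 and 0.454, and their 95% intervals were -0.30 to 0.23, -0.24 to 0.35 and -0.29 to 0.11. On TPM the sign of the difference was positive in HFCFD2W and HFCFD12W+T10W.

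*Klb* (chr5:65348314-65384007, plus strand, GRCm38), which encodes β-Klotho, was decreased in HFCFD2W and HFCFD12W+T10W. In HFCFD2W it was at 21.8, 25.9, 27.1, 27.5 and 28.8 CPM in controls and at 12.7, 14.7, 16.6, 17.6 and 20.8 CPM in knockouts. No mouse crossed, and the log2 fold change was -0.67 (SE 0.124, 95% interval -0.94 to -0.41, edgeR adjusted p = 0.0028). In HFCFD12W+T10W the controls were at 17.97, 19.1, 21.98, 22.89 and 22.96 CPM and the knockouts at 7.60, 9.85, 10.7, 11.9 and 12.2 CPM, again without overlap (log2 fold change -0.96, SE 0.129, edgeR adjusted p = 5.48e-05). In HFCFD8W+T10D the controls were at 14.2, 14.5, 15.3, 15.4 and 20.7 CPM and the knockouts at 11.2, 16.96, 17.98, 22.7 and 22.99 CPM. These ranges overlapped, and the log2 fold change was 0.21 (SE 0.182, edgeR adjusted p = 0.486). The *Klb* effect of HFCFD8W+T10D was 0.87 log2 units above that of HFCFD2W (edgeR adjusted p = 0.0109), and that of HFCFD12W+T10W was lower by 1.197 log2 units than that of HFCFD8W+T10D (edgeR adjusted p = 0.00127). The controls of HFCFD8W+T10D had less *Klb* than those of HFCFD2W (log2 difference -0.71, edgeR adjusted p = 0.0006).

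*Insr* (chr8:3122061-3279617, minus strand, GRCm38), the insulin receptor, was increased by a small amount after 2 weeks and decreased in HFCFD12W+T10W. In HFCFD2W it was at 113, 116, 117, 126 and 132 CPM in controls and at 129, 129.9, 149.7, 153 and 164 CPM in knockouts. The control at 132 CPM lay above 2 knockouts, and the log2 fold change was 0.26 (SE 0.0841, edgeR adjusted p = 0.0495). This call was lost in 7 of 10 fits that left out a mouse (control 1, 2, 4 or 5, or knockout 2, 5 or 6, edgeR adjusted p = 0.0729 to 0.12) and in the joint fit (edgeR adjusted p = 0.0565). In HFCFD12W+T10W the controls were at 129.7, 134, 134, 141 and 145 CPM and the knockouts at 73.1, 93.6, 94.8, 95.6 and 103 CPM. All knockouts were lower, by 1.44-fold (log2 fold change -0.53, SE 0.0876, edgeR adjusted p = 0.000287), and by limma on TPM the value was -0.18 (limma adjusted p = 0.115). In HFCFD8W+T10D the ranges were 90.7 to 113 and 75.3 to 102 CPM (log2 fold change -0.27, edgeR adjusted p = 0.0897). The *Insr* effect was lower by 0.55 log2 units in HFCFD8W+T10D (edgeR adjusted p = 0.00571) and by 0.83 in HFCFD12W+T10W (log2 difference -0.83, edgeR adjusted p = 2.87e-05) than in HFCFD2W.

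*Irs1* (chr1:82233101-82291416, minus strand, GRCm38) was decreased in HFCFD12W+T10W. It was at 9.52, 11.2, 14.4, 14.9 and 15.2 CPM in controls and at 7.12, 8.11, 8.30, 8.53 and 11.1 CPM in knockouts, where 4 of 5 knockouts were below every control (log2 fold change -0.56, SE 0.156, edgeR adjusted p = 0.00942). By limma on TPM it was -0.11 (limma adjusted p = 0.415). In HFCFD2W the ranges were 6.97 to 14.9 and 9.20 to 11.5 CPM (log2 fold change -0.11, edgeR adjusted p = 0.675). In HFCFD8W+T10D they were 10.3 to 16.2 and 6.93 to 17.1 CPM (-0.34, edgeR adjusted p = 0.3).

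*Irs2* (chr8:10984681-11008458, minus strand, GRCm38), the substrate whose transcript is known to vary with feeding, did not pass in any experiment and was widely scattered within groups. In HFCFD2W the knockouts were at 3.93, 14.2, 17.1, 18.1 and 29.8 CPM against 10.3 to 19.3 CPM in controls. The knockouts thus lay on both sides of the controls. In HFCFD8W+T10D the ranges were 19.5 to 34.3 CPM in controls and 11.1 to 30.1 CPM in knockouts, and in HFCFD12W+T10W 9.19 to 20.1 and 7.93 to 25.5 CPM. The log2 fold changes were 0.29 (SE 0.36), -0.49 and 0.11, with edgeR adjusted p = 0.638, 0.193 and 0.796. Without knockout replicate 4 of HFCFD8W+T10D, the mouse at 30.1 CPM, *Irs2* passed as lower there (log2 fold change -0.74, edgeR adjusted p = 0.0293). Among *Cebpa* fl/fl mice it was 0.94 log2 units higher in HFCFD8W+T10D than in HFCFD2W (edgeR adjusted p = 0.0292), where 43.6% of genes differed in either direction. That call was lost without control 1, 2 or 3 of HFCFD2W or control 5 of HFCFD8W+T10D (edgeR adjusted p = 0.0507 to 0.0693).

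Across the 3 experiments, 6 of 10 genes did not overlap between genotypes in HFCFD12W+T10W, 4 of them lower (*Erbb3*, *Met*, *Klb* and *Insr*) and 2 higher (*Erbb2* and *Fgfr1*), beside 16.8% and 20.9% of all genes tested there. *Klb* alone did so in HFCFD2W, on the lower side (6.12% of all genes, with 6.42% on the higher side), and *Egfr* alone in HFCFD8W+T10D, also on the lower side (5.28%, with 6.35% on the higher side). Knockout replicate 5 of HFCFD12W+T10W had the lowest level of its group for 7 of 10 genes and replicate 3 the highest for 7. Leaving out either one kept 6 genes lower and 2 higher there.

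The other *Cebpa* fl/fl differences were few. *Insr* was 0.39 log2 units higher in HFCFD12W+T10W than in HFCFD8W+T10D (edgeR adjusted p = 0.00496), where 11.4% of genes differed, and *Fgfr4* had a log2 difference of -0.39 between HFCFD12W+T10W and HFCFD2W (edgeR adjusted p = 0.0146), where 39.1% differed. The *Fgfr4* call was lost without control 5 of HFCFD2W (log2 difference -0.28, edgeR adjusted p = 0.078). Time on diet, tamoxifen and experiment cannot be told apart in these differences, and they share their control mice with the genotype comparisons.

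The ligands, partners and downstream genes of these receptors were taken from 7 lists of 133 genes. Of the 95 tested in HFCFD2W, 15 were higher and 7 lower. Of the 101 tested in HFCFD8W+T10D, 9 were higher and 8 lower, but 3 were higher without knockout replicate 3, 4 without knockout replicate 2, and 5 higher and 5 lower without control replicate 4. Of the 108 tested in HFCFD12W+T10W, 31 were higher and 34 lower. These counts stand beside the percentages of all genes given above for each experiment.

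Among 11 EGF family ligands, 4 of 5 tested were higher and 1 lower in HFCFD12W+T10W, at a median log2 fold change of 0.94 where that of all genes was 0.01. *Tgfa*, an EGFR ligand, was increased in HFCFD2W (from 18.63 to 26.78 CPM, log2 fold change 0.53, edgeR adjusted p = 0.0045) and HFCFD12W+T10W (from 14.49 to 22.49 CPM, 0.68, edgeR adjusted p = 0.000514). *Hbegf* (1.18) and *Btc* (0.94), further EGFR ligands, were higher in HFCFD12W+T10W. *Nrg1*, which binds ERBB3 and ERBB4, held at most 3 counts in each control library of HFCFD12W+T10W and averaged 3.83 CPM in knockouts, at least 11.3-fold higher than 3 counts per library would give. Of 3 ligands tested in HFCFD2W 1 was higher, and 0 of 3 passed in HFCFD8W+T10D by edgeR, DESeq2 or limma, also at an unadjusted p under 0.05. *Nrg1* was below the count filter in both of these experiments and was not tested there. In HFCFD8W+T10D it averaged 0.457 CPM in controls (1 to 8 counts) and 2.74 CPM in knockouts (6 to 55 counts). In HFCFD2W the means were 0.241 and 0.263 CPM.

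Among 15 genes of HGF and FGF supply, 5 of 10 tested were higher and 4 lower in HFCFD12W+T10W, against 2 higher and 1 lower of 8 in HFCFD8W+T10D and 1 higher of 6 in HFCFD2W. *Fgf1* was increased in HFCFD2W (from 69.06 to 100.5 CPM, log2 fold change 0.54) and decreased in HFCFD8W+T10D (from 146.2 to 114.7 CPM, -0.34) and HFCFD12W+T10W (from 165.6 to 78.16 CPM, -1.04). These are the directions in which *Egfr* passed. *Hgfac*, the plasma protease that activates HGF, was higher in HFCFD8W+T10D (0.59) and lower in HFCFD12W+T10W (-0.65). *Spint2*, an inhibitor of HGF-activating proteases, was higher in both tamoxifen experiments (0.81 and 0.70). In HFCFD12W+T10W the epithelial protease *St14* (4.54) and its inhibitor *Spint1* (4.02), at means of 0.539 and 0.339 CPM in controls, were also higher, as was *Fgf2* (1.53).

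Among 14 other receptors and coreceptors, 3 passed in each direction in HFCFD2W (10 tested) and in HFCFD12W+T10W (11 tested), and 1 in each direction in HFCFD8W+T10D (10 tested). *Cd44*, a coreceptor of MET, was higher in all 3 experiments (log2 fold changes 0.79, 0.78 and 1.26). *Nrp1*, a coreceptor of several growth factors, was higher in HFCFD2W (0.57) and lower in the others (-0.49 and -0.61). *Erbb4*, the remaining EGF receptor family member, fell from 8.23 to 0.549 CPM in HFCFD2W (log2 fold change -3.87, edgeR adjusted p = 0.000102) and from 4.83 to 2.43 CPM in HFCFD12W+T10W (-0.94, edgeR adjusted p = 0.00673). In HFCFD8W+T10D *Erbb4* was below the count filter and not tested. Its means there were 1.86 CPM in controls (5 to 22 counts) and 0.340 CPM in knockouts (1 to 6 counts). *Fgfr2* was lower in HFCFD2W (-1.17), and *Fgfr3* (1.53) and *Igf1r* (1.17), the IGF1 receptor, were higher in HFCFD12W+T10W.

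Among 29 adaptors and kinases below the receptors, 26 were tested in each experiment, with 3 higher and 1 lower in HFCFD2W, 1 higher and 3 lower in HFCFD8W+T10D, and 3 higher and 9 lower in HFCFD12W+T10W. *Pik3cb*, a PI3K catalytic subunit, was lower in both tamoxifen experiments (-0.52 and -0.42), as was *Sos1*, the RAS exchange factor (-0.56 and -0.67). *Gab2*, a docking protein, was higher in both (0.80 and 1.39). *Foxo1*, the transcription factor that AKT restrains, fell from 96.14 to 54.41 CPM in HFCFD12W+T10W (-0.78, edgeR adjusted p = 1.69e-06).

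Among 38 inhibitors of these receptors, 4 were higher and 1 lower of 31 tested in HFCFD2W, 1 higher and 2 lower of 34 in HFCFD8W+T10D, and 7 higher and 10 lower of 34 in HFCFD12W+T10W. *Errfi1*, whose product binds and inhibits EGFR, fell from 663.1 to 385 CPM in HFCFD8W+T10D (-0.77, edgeR adjusted p = 0.0352) and from 962.3 to 558.1 CPM in HFCFD12W+T10W (-0.74, edgeR adjusted p = 6.54e-05), the experiments in which *Egfr* was lower. It was at 749.2 and 888.5 CPM in HFCFD2W (edgeR adjusted p = 0.33). *Grb10*, an inhibitor of the insulin receptor, rose from 2.79 to 8.70 CPM in HFCFD2W (1.63, edgeR adjusted p = 0.00124) and from 3.09 to 9.68 CPM in HFCFD12W+T10W (1.69, edgeR adjusted p = 2.59e-05). The ubiquitin ligase *Cbl* was higher in HFCFD2W (0.45) and HFCFD12W+T10W (0.76). In both tamoxifen experiments *Ptpn1*, the insulin receptor phosphatase also called PTP1B, was higher (0.49 and 0.36) and *Phlpp1*, an AKT phosphatase, was lower (-0.44 and -0.34). *Socs2* was higher (1.77) and *Trib3* lower (-1.26) in HFCFD2W. In HFCFD12W+T10W *Spry4* was lower (-1.87) and *Spry1* higher (1.35), both inhibitors of ERK signaling.

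Of 12 genes that ERK signaling is known to induce, 0 of 6 tested passed in HFCFD2W by edgeR, DESeq2 or limma, also at an unadjusted edgeR p under 0.05, 4 of 7 were higher in HFCFD8W+T10D, and HFCFD12W+T10W had 6 of 9 higher, with 0 lower in each of the 3. The medians in the tamoxifen experiments were 0.95 and 1.14, beside 0.01 over all genes. *Etv5* (0.95 and 0.72), *Myc* (0.80 and 1.59) and *Sox9* (1.00 and 3.16) were higher in both, and the cell cycle gene *Ccnd1* rose from 36.68 to 182.9 CPM in HFCFD12W+T10W (2.36, edgeR adjusted p = 4.04e-07). *Sox9* is also among the 9 cholangiocyte markers, whose sums are given above beside *Erbb2*, and its part in this list was not tested. The ERK feedback inhibitors of the Sprouty and DUSP families were counted among the inhibitors above and not here. They passed in both directions in HFCFD12W+T10W. *Spry4* was lower (-1.87), and *Spry1* (1.35), *Spry2* (1.00) and *Dusp5* (0.90) were higher. *Spry2* and *Dusp5* were at means of 0.956 and 1.15 CPM in those controls. In HFCFD8W+T10D neither *Spry4* (-0.82) nor *Spry1* (0.27) passed. The list therefore does not stand for all ERK-induced genes.

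Of 14 genes set by insulin through FOXO1 or SREBP1, 13 were tested in each experiment. In HFCFD2W 3 were higher and 2 lower, in HFCFD8W+T10D 0 were higher (1 at an unadjusted edgeR p under 0.05, 0 by DESeq2 or limma) and 1 was lower, whereas HFCFD12W+T10W had 7 lower and 3 higher genes, at a median of -0.54. *Igfbp1*, which insulin represses, rose from 22.63 to 235.6 CPM in HFCFD2W (3.39, edgeR adjusted p = 0.000487), where the gluconeogenic *Pck1* rose from 1404 to 3569 CPM (1.35, edgeR adjusted p = 0.000389). *Pck1* fell in HFCFD12W+T10W (-0.55), and *G6pc*, the last enzyme of glucose release, fell in both tamoxifen experiments (-1.11 and -1.24). *Srebf1*, which insulin raises, was lower in HFCFD2W (-1.18) and HFCFD12W+T10W (-0.54). *Apoc3*, an inhibitor of lipoprotein lipase, was lower in HFCFD2W (-0.39) and HFCFD12W+T10W (-0.82).

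**Figure D4:**
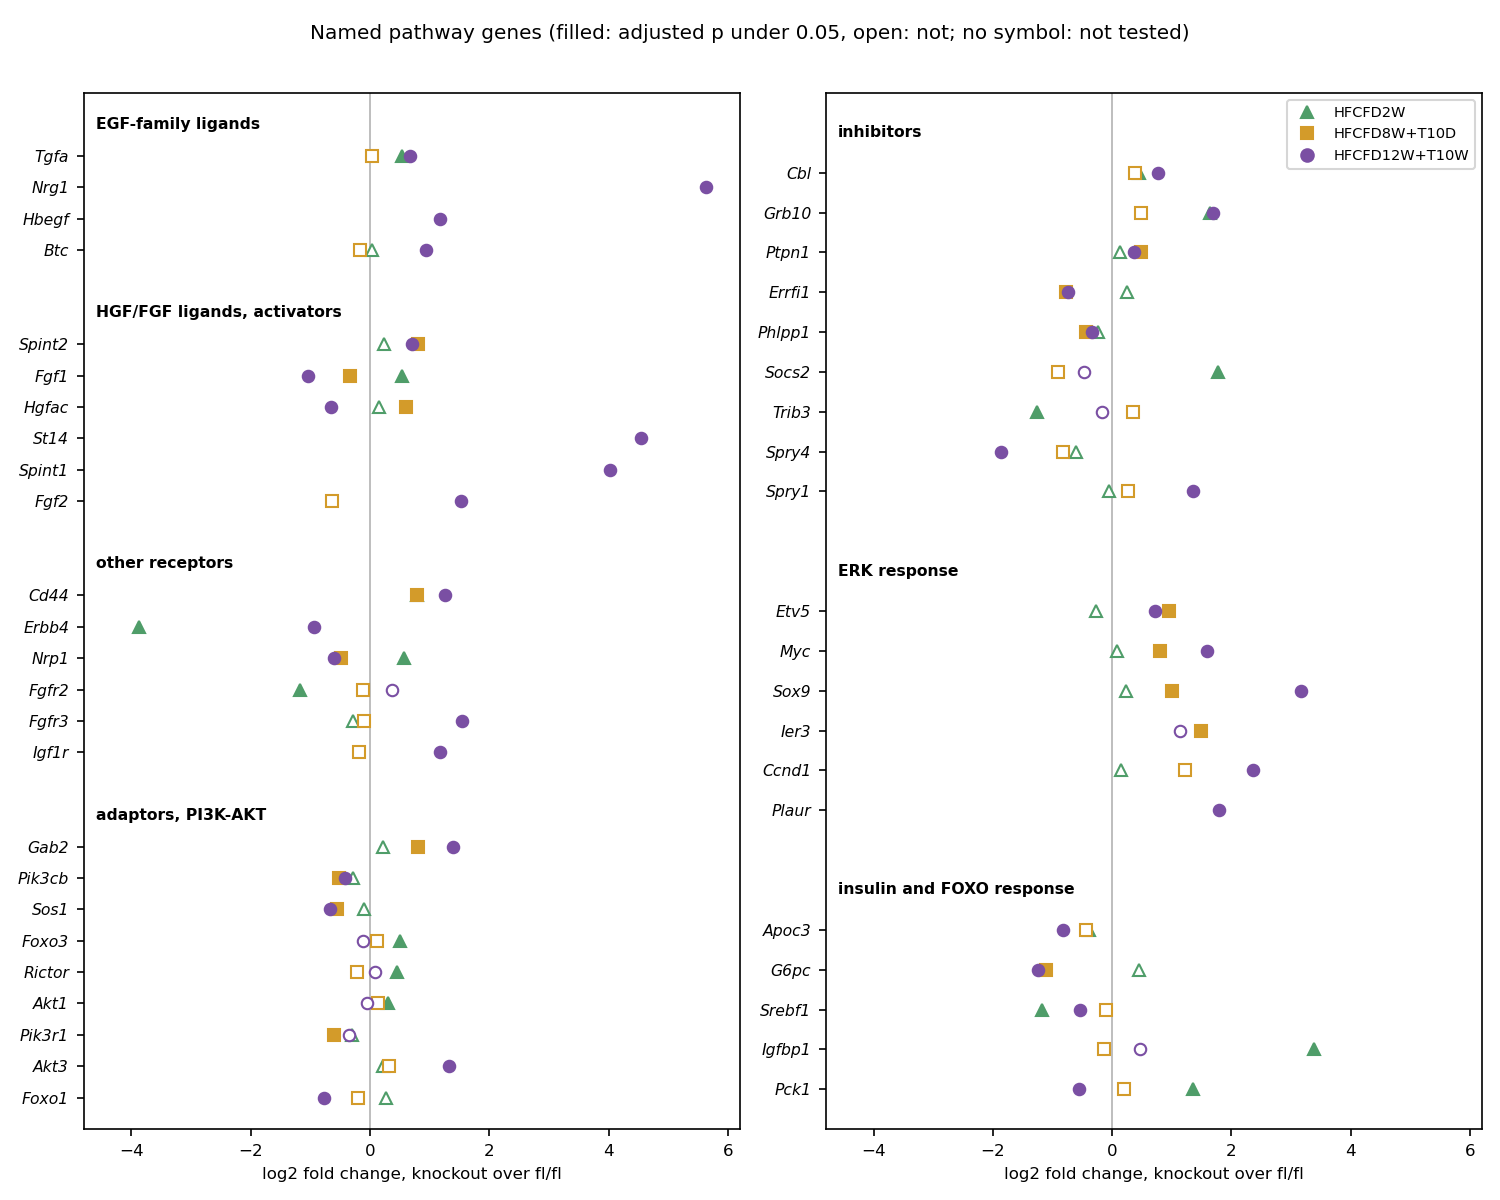
Log2 fold change, knockout over Cebpa fl/fl (x axis), of the named ligand, coreceptor, adaptor, inhibitor and target genes (y axis) in the 3 experiments. Erbb4 lay at -3.87 in HFCFD2W and Sox9 at 3.16 in HFCFD12W+T10W; the position of Nrg1 depends on the prior count, since all 5 of its control libraries held at most 3 counts.

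For each of the 10 genes, the genes with the most similar log2 CPM over the 30 libraries were looked up among 10950 genes, as a description that contains the group differences and the libraries' shared depth. *Egfr* was most like *Ttc39c* (Pearson r = 0.95) and *Cmah* (r = 0.932), and *Met* most like *Rdx* (r = 0.968) and *Lrit1* (r = 0.955). After group means were removed, r was 0.762 for *Egfr* and *Ttc39c* and 0.777 for *Met* and *Rdx*. *Erbb2* was most like *Cd24a* (r = 0.867) and *Cdc42se1* (r = 0.853), and *Fgfr1* most like *Alcam* (r = 0.879) and *Ripor2* (r = 0.812). *Klb* was closest to *Aspg* (r = 0.85) and to *Slc10a1* (r = 0.834), the hepatocyte bile acid importer. *Insr* was closest to *Deptor* and *Acsm5* (both r = 0.921), *Erbb3* to *Cecr2* (r = 0.806) and *Zfp707* (r = 0.803), *Fgfr4* to *Nr2f6* (r = 0.788) and *Lrrc3* (r = 0.778), and *Irs1* to *Heca* (r = 0.771) and *Zrsr1* (r = 0.75). *Irs2* had the weakest neighbours, *Gpc3* (r = 0.585) and *Kat8* (r = 0.576).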

How the data were processed

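Liver poly(A) RNA libraries (TruSeq Stranded mRNA) from 30 mice were analysed. Per the labels, the submitters' processing notes name Trimmomatic 0.36, STAR 2.5.1, Picard 1.84, RSEM 1.2.22, DESeq2 and mm10, without their roles. The authors deposited RSEM expected counts, of which 3.251% were not whole (0% for the 10 genes), and TPM for each library; the FPKM columns were not used. Expected counts split reads between similar genes and isoforms by estimate, and TPM also divides by an estimated transcript length. Expected counts were rounded, filtered with filterByExpr, scaled with the trimmed mean of M-values and tested with edgeR 4.0.16 (quasi-likelihood, R 4.3.3) within each experiment, with Benjamini-Hochberg adjustment over all genes tested. A gene passed at an adjusted p under 0.05. Differences between experiments came from a joint fit of the 6 groups (12964 genes). The exact two-sided permutation test used log2 CPM (prior count 2) and all 252 arrangements of 10 mice (scipy 1.17.1).

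Alternatives were DESeq2 1.42.0, limma 3.58.1 on log2(TPM + 1), upper quartile scaling, no filter on low counts, the joint fit, the replicate number as a block, stricter thresholds and each library left out. With 7996142 to 10257364 counts per library, and after scaling, a level of 1 CPM stands for 6.74 to 12.4 counts. Bounds at 3 counts cover counting error only. The confidence intervals come from the edgeR quasi-likelihood fit and also include the spread between mice of a group. Libraries of a group differed beyond sampling noise (chi-square per gene 7.45 to 65.0). The test was checked on simulated data before use. Named were all 10 genes, list genes that passed in the same direction in at least 2 experiments, the 3 passing genes of each list with the largest absolute log2 fold change in each experiment (mean of at least 1 CPM), the 2 genes most correlated with each of the 10, and the markers of the cell type lists. The 10 genes and the lists were chosen with earlier results of these data known. Of the genes this rule names, 2 are not reported here by name.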

Additional observations from a re-analysis of the deposited data

Results flagged for a closer look

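Of 60 sets of 5 mice, 6 held a mouse that stood apart from the other 4 by Dixon's 95% critical value, where chance alone gives about 1 in 20. *Erbb3* accounted for 3 of them, with a lowest value of 41.9 CPM in knockout replicate 4 of HFCFD2W, a highest value of 146 CPM in knockout replicate 5 of HFCFD8W+T10D and a lowest value of 33.9 CPM in knockout replicate 5 of HFCFD12W+T10W. The others were *Met* at 69.2 CPM in knockout replicate 5 of HFCFD8W+T10D, *Klb* at 20.7 CPM in *Cebpa* fl/fl replicate 3 of HFCFD8W+T10D, and *Insr* at 73.1 CPM in knockout replicate 5 of HFCFD12W+T10W.

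The genotype effect differed between experiments by the edgeR test of the difference for 10 gene and contrast combinations, given here as log2 differences. Between HFCFD8W+T10D and HFCFD2W these were *Egfr* (-2.47), *Klb* (0.869) and *Insr* (-0.548). Between HFCFD12W+T10W and HFCFD2W they were *Egfr* (-2.31), *Erbb2* (1.89), *Met* (-0.71) and *Insr* (-0.829). Between HFCFD12W+T10W and HFCFD8W+T10D they were *Erbb2* (1.53), *Met* (-0.507) and *Klb* (-1.2), where 10.5% of all genes differed in either direction. In that last contrast *Erbb2* (edgeR adjusted p = 0.0446) lost its call in 13 of 20 fits that left out a library (edgeR adjusted p = 0.0568 to 0.0928 in those 13), and *Met* (edgeR adjusted p = 0.0489) in 15 of 20 (edgeR adjusted p = 0.0502 to 0.134).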

How the results depend on the processing

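Of 248 values for single members under alternatives other than a left-out library, 220 kept their direction and side of the threshold, 22 no longer passed, 1 newly passed and 5 changed sign. Of 550 values with a library left out, 491 kept both, 46 no longer passed, 4 newly passed and 9 changed sign. The cause was not tested.

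Replicate numbers did not pair the mice: the correlation of same-numbered deviations over 2000 genes ran from -0.33 to 0.04 in HFCFD2W, -0.07 to 0.16 in HFCFD8W+T10D and -0.05 to 0.22 in HFCFD12W+T10W, so the mice share only a number. With the replicate block, 1 member passed as higher and 1 as lower in HFCFD2W, 1 genotype effect differed between HFCFD12W+T10W and HFCFD8W+T10D, and *Fgfr4* changed sign in HFCFD2W (0.0096).

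Counts moved as follows. In HFCFD2W the higher count of 2 was 0 in the joint fit (*Egfr* at an unchanged 0.70, adjusted p = 0.153, and *Insr* at 0.26, adjusted p = 0.0565), 1 without the low-count filter, 1 with upper quartile scaling, 0 at an adjusted p under 0.01 and 0 at a fold over 2, and the lower count of 2 was 1 in the joint fit, 1 by limma on TPM, 1 at p under 0.01 and 0 at a fold over 2. In HFCFD8W+T10D the lower count of 2 was 1 by limma on TPM (*Met* was lost), at p under 0.01 and at a fold over 2. In HFCFD12W+T10W the higher count of 2 was 1 at a fold over 2, and the lower count of 6 was 2 by limma on TPM and 1 at a fold over 2. The 3 different effects between HFCFD12W+T10W and HFCFD8W+T10D were 1 without the filter and 1 at p under 0.01. Between *Cebpa* fl/fl groups, the count for HFCFD12W+T10W and HFCFD2W went from 1 to 3 by limma on TPM and to 0 at p under 0.01, and that for HFCFD8W+T10D and HFCFD2W from 3 to 1 by limma on TPM. With a library left out the counts ran from 1 to 2 (higher) and 1 to 2 (lower) in HFCFD2W, 2 to 5 (lower) in HFCFD8W+T10D, 1 to 3 for the last interaction and 0 to 2 for the *Cebpa* fl/fl groups of HFCFD12W+T10W and HFCFD2W. List genes in HFCFD8W+T10D ran from 3 to 12 higher and 5 to 11 lower.

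Signs changed on TPM for *Fgfr4* in HFCFD12W+T10W (0.22) and HFCFD2W (0.079), *Irs1* in HFCFD2W (0.015) and *Fgfr4* between *Cebpa* fl/fl groups of HFCFD12W+T10W and HFCFD2W (0.035). With a library left out, *Irs2* ran from -0.20 to 0.27 in HFCFD12W+T10W and -0.044 to 0.55 in HFCFD2W, *Fgfr4* from -0.11 to 0.077 in HFCFD2W and -0.029 to 0.14 in HFCFD8W+T10D, and *Irs1* from -0.25 to 0.0041 in HFCFD2W. None of these passed in the reported test except the *Fgfr4* difference between *Cebpa* fl/fl groups.

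On TPM the median of all genes moved to 0.10, 0.18 and 0.32 (log2) in the 3 experiments, and the share of passing genes that were higher went from 51.5% to 75.9%, 60% to 81.1% and 53.5% to 87.8%. Relative to that median, the members of HFCFD12W+T10W were at -1.35 (*Egfr*), 0.43 (*Erbb2*), -0.70 (*Erbb3*), -0.87 (*Met*), 0.58 (*Fgfr1*), -0.10 (*Fgfr4*), -0.82 (*Klb*), -0.50 (*Insr*) and -0.43 (*Irs1*). Upper quartile scaling moved that share for the effect differences from 43.5% to 61.6% (HFCFD12W+T10W and HFCFD2W), 47.4% to 66.5% (HFCFD12W+T10W and HFCFD8W+T10D) and 39.6% to 52.6% (HFCFD8W+T10D and HFCFD2W). Depth limits *Erbb2*, at 3 to 12 counts in most libraries.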
